A study of Mus musculus with 16 samples.

Results

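The extracellular proteases of the Mmp and Adamts families and their Timp inhibitors were followed in primary murine gingival fibroblasts (mGF) treated with palmitate, IL-1β or both. A gene was taken as a member when its symbol was Mmp, Adamts or Timp followed by its number, which gave 46 of the 56941 genes in the count table. Of these members, 23 were Mmp genes, 19 were Adamts genes and 4 were Timp genes. At least 10 counts in 4 or more libraries were found for 34 members, namely 16 Mmp, 15 Adamts and 3 Timp genes. The expression filter of the test kept 33 of them, since Mmp12 passed the count rule but not the filter.

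The cells were grown from gum explants around the maxillary second molar of wild-type C57Bl6 mice aged 3 to 6 months and were used between passages 2 and 8. Every condition thus describes cultured fibroblasts and not gum tissue, and levels of markers of other cell types are given below. The 4 conditions were BSA (control, the vehicle in which palmitate is given), IL-1β at 1 ng/mL, BSA-bound palmitate at 200 μM, and the same palmitate and IL-1β together (palmitate + IL-1β), for 24 h. Whether the IL-1β wells also received the BSA vehicle is not given in their labels. Each condition had 4 libraries, which are called here by the replicate numbers 1 to 16 of the labels. Nothing in the labels says that the libraries of a condition came from separate cultures or animals, so p-values measure the spread between these libraries, which may be technical.

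Matrix metalloproteinases (MMPs) are zinc enzymes that cleave collagens, gelatin and other matrix proteins, either after secretion or from the cell surface, and most are made as inactive precursors that other proteases activate. ADAMTS proteases are secreted relatives that bind matrix, some of them cutting proteoglycans such as aggrecan and versican and others trimming procollagens. The tissue inhibitors of metalloproteinases (TIMPs) bind the active site of these enzymes, and TIMP3 also blocks several ADAMTS enzymes. In the gum, collagen loss by fibroblast and neutrophil MMPs is a known feature of periodontitis.

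Side by side on chromosome 9 lie 10 of the Mmp genes, between positions 7272514 and 7699587 of GRCm39, in the order Mmp13, Mmp12, Mmp1b, Mmp3, Mmp1a, Mmp10, Mmp8, Mmp27, Mmp20 and Mmp7. Only Mmp13, Mmp3 and Mmp10 of these 10 genes were expressed enough to be tested, and all 3 rose with palmitate. Their promoters are shown because they hold the best-known control element of this gene cluster, the site for AP-1 (Fos and Jun dimers), and that of Mmp1a is shown as a neighbour with the same letters and at most 3 counts in any library. Each run gives the 250 bases before the RefSeq start, taken from a table of build GRCm38.p6 and found at a single exact place in GRCm39, with the AP-1 letters TGANTCA and the TATA letters TATAAA in capitals.
Mmp13, chr9:7272264-7272513, plus strand: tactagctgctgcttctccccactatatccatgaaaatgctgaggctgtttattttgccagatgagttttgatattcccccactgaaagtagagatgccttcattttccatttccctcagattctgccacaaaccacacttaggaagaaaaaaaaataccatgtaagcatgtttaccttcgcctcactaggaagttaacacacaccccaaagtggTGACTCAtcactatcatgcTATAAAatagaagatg
Mmp3, chr9:7445572-7445821, plus strand: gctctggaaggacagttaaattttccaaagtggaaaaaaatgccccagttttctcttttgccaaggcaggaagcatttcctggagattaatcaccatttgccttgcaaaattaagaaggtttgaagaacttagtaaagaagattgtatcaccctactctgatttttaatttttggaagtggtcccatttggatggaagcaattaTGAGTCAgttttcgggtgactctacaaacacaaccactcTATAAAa
Mmp10, chr9:7502093-7502342, plus strand: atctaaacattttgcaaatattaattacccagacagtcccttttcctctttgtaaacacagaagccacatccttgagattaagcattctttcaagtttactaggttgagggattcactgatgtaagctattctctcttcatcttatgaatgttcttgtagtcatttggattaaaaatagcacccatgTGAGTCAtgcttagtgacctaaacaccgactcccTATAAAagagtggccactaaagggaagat
Mmp1a, chr9:7463891-7464140, plus strand: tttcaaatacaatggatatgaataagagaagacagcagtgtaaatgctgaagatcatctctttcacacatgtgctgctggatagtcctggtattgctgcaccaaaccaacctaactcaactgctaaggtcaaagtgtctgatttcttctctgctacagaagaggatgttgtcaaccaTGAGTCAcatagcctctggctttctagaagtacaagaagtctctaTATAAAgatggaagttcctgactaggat

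The AP-1 letters began 35 bases before the start in Mmp13, 46 bases in Mmp3, 63 bases in Mmp10 and 73 bases in Mmp1a, always upstream of the TATA letters. Promoters were found for 32 of the 46 members, as 35 windows. On either strand, TGANTCA stood in the windows of 8 of the 10 genes of the chromosome 9 cluster and in those of none of the other 22 members, against 6.75% of 32851 windows of all genes. The 8 genes were Mmp13, Mmp12, Mmp1b, Mmp3, Mmp1a, Mmp10, Mmp20 and Mmp7, and 5 of these 8 were not tested for want of counts. Members without the AP-1 letters rose with palmitate as well, namely Adamts14, Mmp14, Mmp25, Mmp28 and Timp1. For the risers Mmp9, Adamts4 and Adamts7 no promoter was searched. The TATA letters stood before 7 of the 10 cluster genes and before Adamts1 and Mmp21 among the others, against 12.4% of all windows. The Ets letters GGAAG were found in 26 of the 35 windows (64.1% of all windows), the C/EBP letters TTGCNNAA in 6 (9.56%) and the NF-kB letters GGGNNTTCC in 0 (4.98%). A match is a string of letters and was not tested as a binding site. Promoters of Adamts10, Adamts15, Adamts16, Adamts19, Adamts4, Adamts5, Adamts6, Adamts7, Adamts8, Mmp16, Mmp17, Mmp19, Mmp2 and Mmp9 were not analysed here.

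The libraries held 21234789 to 92752515 counts on annotated genes, the deepest being palmitate replicate 10, and 3 counts corresponded to 0.0331 to 0.146 CPM, the counts scaled to a common library size. The fibroblast markers Col1a1, Col1a2, Col3a1, Dcn, Lum, Pdgfra, Thy1 and Vim were all present. Their summed level was 31221 to 33355 CPM without palmitate and 28182 to 30960 CPM with it. Not every marker fell. From BSA (control) to palmitate, mean Vim went from 5658.7 to 4555.0 CPM and Col1a2 from 6942.6 to 6173.3 CPM. Pdgfra rose from 213.1 to 309.7 CPM, and Col3a1 was at 4953.6 and 4953.1 CPM. Smooth muscle and pericyte markers, mostly Acta2, summed to 2848.5 to 3689.7 CPM without palmitate and 3081.6 to 3616.8 CPM with it. The 5 markers of neutrophils, the usual source of Mmp8 and much Mmp9, summed to at most 0.105 CPM in any library. Mpo, Elane, Ly6g and S100a9 reached at most 1 count, and S100a8 at most 7. Endothelial markers summed to 0.663 to 1.60 CPM, and osteoblast and cementoblast markers to 3.64 to 5.71 CPM. The 6 macrophage markers summed to 2.57 to 4.35 CPM, with Csf1r at 24 to 122 counts, Cd68 at 18 to 83 and Lyz2 at 9 to 43, while Ptprc, Adgre1 and Aif1 reached at most 7, 3 and 2 counts. Keratinocyte markers summed to 3.55 to 4.92 CPM without palmitate and to 1.90 to 2.83 CPM with it, almost all of it Dsp, while Krt5 and Krt14 reached at most 5 and 4 counts. The part of these cells and of this difference in the results below was not tested. In bulk RNA, fewer cells of a type cannot be told apart from less RNA per cell.

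The inhibitors and 2 proteases made up most of the family's RNA. In CPM divided by exon length in kb, which allows genes to be compared, Timp2 was highest in BSA (control) with 345.8 ± 10.7 (SD, n = 4), followed by Mmp2 with 265.4 ± 5.47. Timp3 (116.0 ± 8.56) and Mmp14 (109.8 ± 1.99) came next and did not differ beyond their spread. Timp1 stood at 52.5 ± 4.96 CPM per kb. The highest Adamts genes were Adamts12 with 28.7 ± 1.85, Adamts2 with 19.6 ± 0.648 and Adamts1 with 17.7 ± 0.742 CPM per kb. Mmp11 followed at 14.7 ± 0.876, and Adamts5 (12.6 ± 0.707), Mmp19 (12.4 ± 0.65) and Adamts6 (12.2 ± 0.582) lay within their spread of each other. Mmp13 and Mmp3 were in the middle of the family with 6.42 ± 0.168 and 4.80 ± 0.451 CPM per kb. The lowest of the tested members were Adamts8 and Mmp25, each at 0.0226 CPM per kb. Exon length is that of all annotated exons of a gene together, so these levels depend on the annotation.

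**Figure D1:**
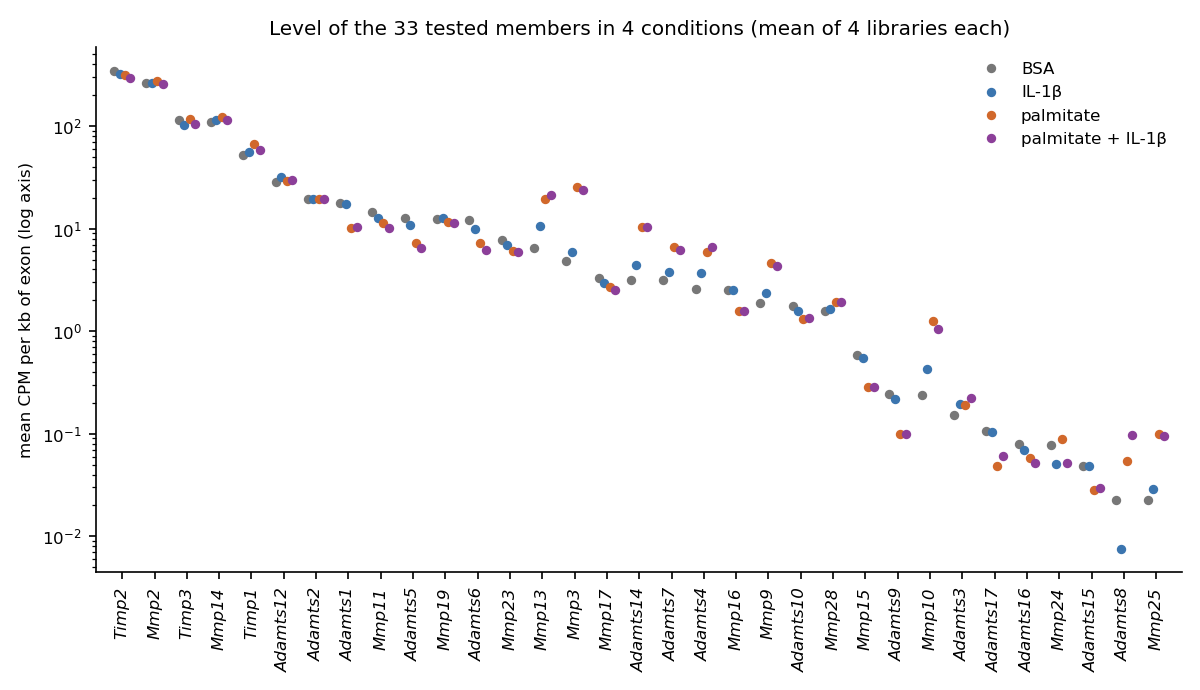
Mean level of the 33 tested members (points, mean of 4 libraries) in each condition, in CPM per kb of exon on a log axis, ordered by the level in BSA (control). Timp2, Mmp2, Timp3 and Mmp14 lead in every condition, while Mmp13 and Mmp3 move from 6.42 and 4.80 in BSA (control) to 19.6 and 25.6 CPM per kb with palmitate.

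Of the 13 members that could not be tested, Mmp7, Mmp20 and Mmp21 had 0 counts in every library. Mmp1a, Mmp8 and Adamts19 had at most 3, 3 and 1 counts, which is at or under the counting floor. Adamts20 (at most 4), Mmp27 (5), Mmp1b and Adamts18 (6 each), Adamts13 (8) and Timp4 (11) were barely above it. Mmp12, the macrophage elastase, was the most counted of them with 2 to 24 counts, the 24 being in the deepest library at 0.265 CPM, and it reached at most 0.575 CPM. Of the 4 secreted collagenases, Mmp1a, Mmp1b, Mmp8 and Mmp13, the last was the only one that could be tested. Mmp25 and Adamts8 reached 10 counts only in libraries with palmitate, so their place among the tested members depends on those libraries.

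Palmitate against BSA (control) asked how the saturated fatty acid alone changed these genes. Of the 33 tested members, 11 rose and 13 fell, at shares of 33.3% and 39.4%, where 19.8% of all 16306 genes tested rose and 17.5% fell. The libraries of both conditions did not overlap in 23 of the 33 tested members, where 36.0% of all genes tested did not overlap. The median log2 fold change was 0.03 over the members and 0.00 over all genes, since rises and falls balanced. Of the 15 Mmp genes, 7 were higher and 5 lower (median 0.17). Of the 15 Adamts genes, 3 were higher and 7 lower (median -0.43). In palmitate + IL-1β against BSA (control), 6 Mmp genes were higher and 6 lower (median -0.04). In that comparison 5 Adamts genes were higher and 6 lower (median -0.41). The difference between the families was not tested. With palmitate alone, a change of at least 2-fold was called in 12 members, 6 Mmp and 6 Adamts genes, and in none of the 3 tested Timp genes. The share of all genes tested with such a change was not computed, so this count is a description only. The 2-fold count, the 11 rises and the 23 members without overlap all include Mmp25, which entered the test only through libraries with palmitate. With upper-quartile scaling the members split as 11 higher and 14 lower, and over all genes the share of calls that were higher was 37.1% in place of 53.1%.

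**Figure D2:**
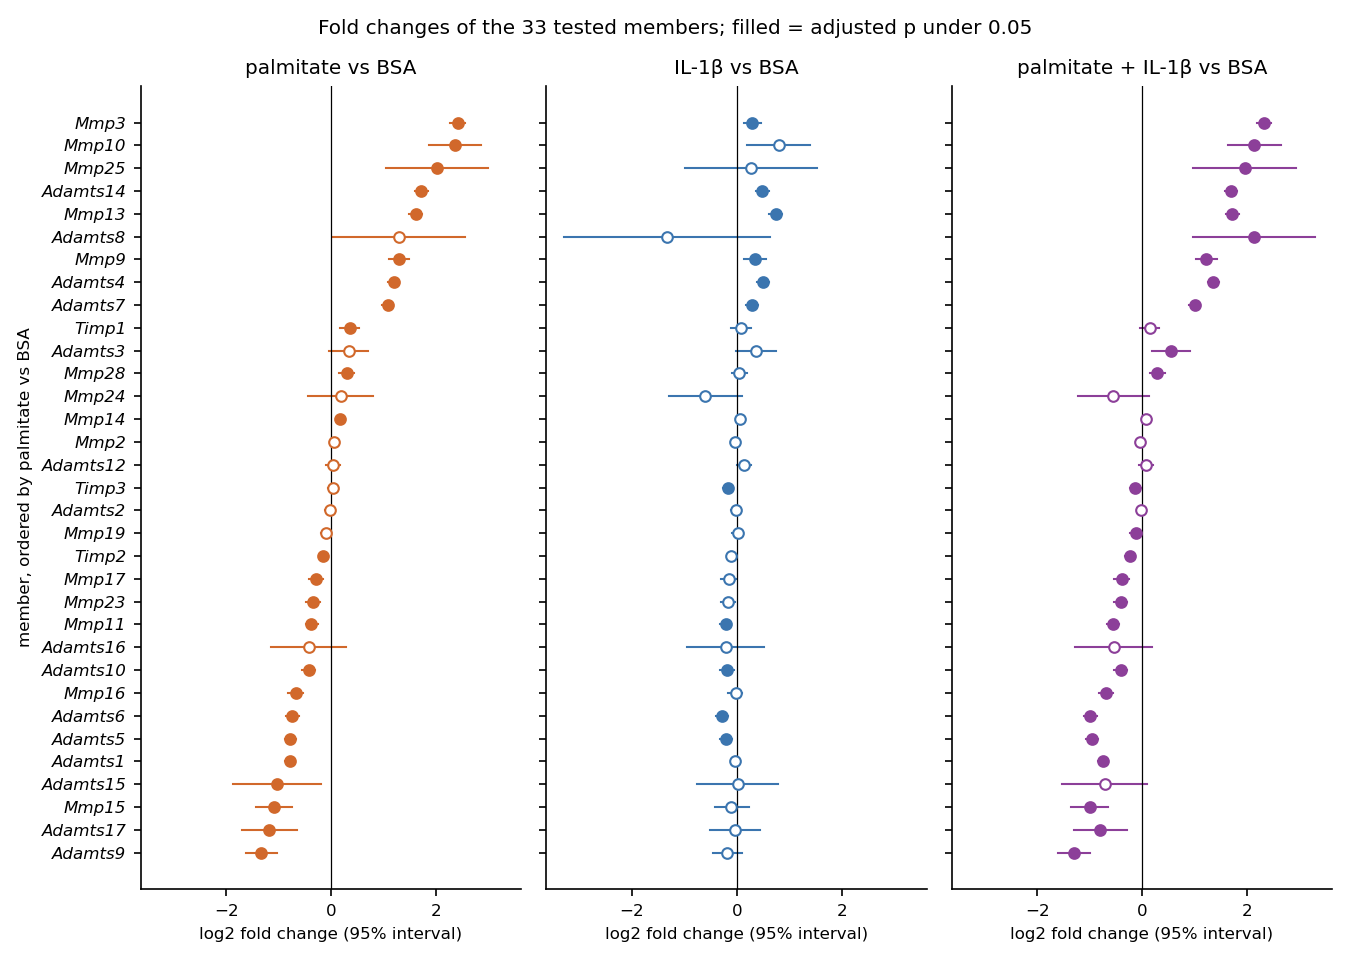
Log2 fold change against BSA (control) with its 95% interval for the 33 tested members in palmitate (left), IL-1β (middle) and palmitate + IL-1β (right), filled where the adjusted p was under 0.05. With palmitate the filled points run from -1.33 (Adamts9) to 2.42 (Mmp3) and with IL-1β from -0.28 (Adamts6) to 0.74 (Mmp13), and all 3 panels share the BSA (control) libraries.

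Among the collagenases, Mmp13, which cleaves fibrillar collagen, stood at 17.1, 17.3, 16.6 and 17.6 CPM under BSA (control), 28.7, 29.4, 28.7 and 27.5 CPM under IL-1β, 54.7, 53.3, 52.5 and 49.5 CPM under palmitate, and 60.7, 57.0, 48.5 and 60.2 CPM under palmitate + IL-1β. The 4 BSA (control) libraries were the lowest and the 4 IL-1β libraries came next, with no overlap, and every library with palmitate was above both. The log2 fold change was 1.61 ± 0.06 (SE) with palmitate (adjusted p = 3.3e-20), 0.74 ± 0.06 with IL-1β (adjusted p = 1.6e-10) and 1.72 ± 0.06 with both (adjusted p = 4.0e-21). Between palmitate + IL-1β and palmitate the log2 difference was 0.11 ± 0.05 (adjusted p = 0.243), which passed without palmitate + IL-1β replicate 15, the lowest library with palmitate (log2 0.18, adjusted p = 0.0179).

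The stromelysins Mmp3 and Mmp10, which degrade proteoglycans and other matrix proteins and activate other MMP precursors, rose most with palmitate. Mmp3 was at 9.32, 7.62, 9.27 and 8.35 CPM under BSA (control), 11.8, 11.3, 9.12 and 10.6 CPM under IL-1β, 46.1, 48.5, 43.8 and 45.7 CPM under palmitate, and 43.8, 45.2, 43.0 and 40.5 CPM under palmitate + IL-1β. The libraries fell into a low set without palmitate and a high set with it, and the IL-1β libraries overlapped those of BSA (control). Palmitate raised Mmp3 5.34-fold (log2 2.42 ± 0.07, adjusted p = 4.2e-23), the largest rise of any member, and IL-1β raised it 1.23-fold (log2 0.30 ± 0.08, adjusted p = 0.00834). The IL-1β call was lost without BSA replicate 2, the lowest library (log2 0.24, adjusted p = 0.055). A stretch of 22.9% of the Mmp3 transcript is at least 95% identical to the predicted genes Gm15242 and Gm15244, so its count is uncertain to that extent.

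Mmp10 was scarce, with 0.326, 0.549, 0.381 and 0.384 CPM under BSA (control), 0.941, 0.508, 0.475 and 0.994 CPM under IL-1β, 2.53, 1.95, 1.84 and 2.30 CPM under palmitate, and 1.81, 1.72, 2.06 and 1.69 CPM under palmitate + IL-1β. All 8 libraries with palmitate were above all 8 without it. The rise was 2.36 ± 0.24 on the log2 scale with palmitate (adjusted p = 1.5e-09) and 2.14 ± 0.25 with both (adjusted p = 1.1e-08). IL-1β alone gave 0.80 ± 0.29 (adjusted p = 0.0617), which passed with DESeq2 (adjusted p = 0.0472) and without BSA replicate 2, IL-1β replicate 6 or IL-1β replicate 7 (log2 0.93 to 0.98, adjusted p = 0.0267 to 0.0443). The remaining stromelysin, Mmp11, an enzyme with little action on collagen, went the other way, from a mean of 51.9 CPM (SD 3.08, n = 4) under BSA (control) to 39.9 ± 1.74 CPM in palmitate (log2 -0.38 ± 0.06, adjusted p = 1.7e-06).

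The gelatinases, which cleave denatured collagen and basement membrane collagen, differed from each other. Mmp9 stood at 6.33, 7.50, 6.18 and 7.72 CPM under BSA (control), 8.27, 10.5, 9.12 and 7.29 CPM under IL-1β, 17.2, 17.7, 17.7 and 15.2 CPM under palmitate, and 17.6, 16.0, 16.9 and 14.1 CPM under palmitate + IL-1β. Libraries with palmitate were all above those without it, and IL-1β replicate 8 lay within the range of BSA (control). Palmitate raised Mmp9 by 1.30 ± 0.09 on the log2 scale (adjusted p = 1.1e-12) and both agents raised it by 1.22 ± 0.10 (adjusted p = 3.4e-12). The IL-1β rise of 0.34 ± 0.10 (adjusted p = 0.0201) was lost without BSA replicate 1 or 3 or IL-1β replicate 6 or 7 (log2 0.25 to 0.32, adjusted p = 0.0605 to 0.111).

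Mmp2, the constitutive gelatinase of fibroblasts and the most abundant protease here, stood at 946.2, 956.9, 936.5 and 911.7 CPM under BSA (control), 937.2, 945.6, 921.5 and 878.2 CPM under IL-1β, 998.2, 972.0, 970.0 and 950.1 CPM under palmitate, and 970.2, 914.6, 884.9 and 879.6 CPM under palmitate + IL-1β. The conditions overlapped except palmitate against IL-1β. No comparison with BSA (control) passed the test, and the 95% interval of the palmitate difference ran from -0.03 to 0.13 on the log2 scale. With upper-quartile scaling, palmitate + IL-1β against BSA (control) passed for Mmp2 (log2 -0.12, adjusted p = 0.0141).

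Among the 6 tested membrane-type enzymes, which sit on the cell surface, 2 rose and 3 fell with palmitate. Mmp14, the main surface collagenase and activator of Mmp2, was at 659.3, 678.2, 683.6 and 686.7 CPM under BSA (control), 730.6, 710.5, 697.0 and 680.4 CPM under IL-1β, 773.6, 799.7, 728.1 and 753.2 CPM under palmitate, and 723.7, 731.2, 708.3 and 690.5 CPM under palmitate + IL-1β. The palmitate libraries were all above those of BSA (control), by 1.13-fold (log2 0.17 ± 0.04, adjusted p = 7.3e-04). With both agents the difference was 0.08 ± 0.04 (adjusted p = 0.121).

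Mmp25, a membrane-anchored enzyme best known from leukocytes, had 6, 5, 0 and 4 counts under BSA (control), 3, 4, 4 and 5 counts under IL-1β, 13, 45, 7 and 18 counts under palmitate, and 9, 19, 22 and 11 counts under palmitate + IL-1β. In CPM these were 0 to 0.178, 0.123 to 0.207, 0.257 to 0.739 and 0.255 to 0.707, without overlap between libraries with and without palmitate. Its rise was 2.02 ± 0.47 on the log2 scale with palmitate (adjusted p = 9.0e-04) and 1.96 ± 0.48 with both (adjusted p = 0.00115), and rests on few counts. Mmp25 entered the test only through libraries with palmitate, where it is high, so this rise is given as a description. The summed macrophage markers were 2.62 to 4.35 CPM under BSA (control) and 2.57 to 3.45 CPM under palmitate, and their part in the Mmp25 result was not tested.

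Mmp15, a membrane-type enzyme of epithelial and other cells, was at 3.26, 3.07, 2.94 and 3.39 CPM under BSA (control), 3.27, 2.85, 3.10 and 2.61 CPM under IL-1β, 1.60, 1.31, 1.80 and 1.40 CPM under palmitate, and 2.12, 1.19, 1.80 and 1.11 CPM under palmitate + IL-1β. Every library with palmitate was below every library without it. Mmp15 fell by 1.09 ± 0.17 on the log2 scale with palmitate (adjusted p = 5.0e-06) and by 1.00 ± 0.17 with both (adjusted p = 1.2e-05). Mmp16 fell by 0.68 ± 0.07 (from 38.5 ± 3.05 to 24.1 ± 1.35 CPM) and Mmp17 by 0.29 ± 0.07 (from a mean of 23.1 to 18.9 CPM). Of the remaining Mmp genes, Mmp28 rose with palmitate by 0.30 ± 0.07, Mmp23 fell by 0.35 ± 0.06, and Mmp19 (log2 -0.10 ± 0.05, adjusted p = 0.11) and Mmp24 (0.18 ± 0.30, adjusted p = 0.693) did not pass.

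Among the Adamts enzymes that cut proteoglycans, Adamts4, an aggrecanase, was the only riser with palmitate among the 6 that were tested, while 4 fell. Adamts4 stood at 15.6, 16.3, 17.4 and 17.4 CPM under BSA (control), 23.6, 23.0, 23.7 and 24.3 CPM under IL-1β, 37.6, 39.5, 39.0 and 35.5 CPM under palmitate, and 40.3, 42.8, 43.7 and 44.3 CPM under palmitate + IL-1β. The 4 conditions formed 4 separate steps with no overlap between any of them. The log2 fold change against BSA (control) was 0.51 ± 0.06 with IL-1β (adjusted p = 5.8e-08), 1.19 ± 0.05 with palmitate (adjusted p = 5.8e-18) and 1.36 ± 0.05 with both (adjusted p = 1.3e-19).

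Adamts5, the other main aggrecanase, moved against it. It was at 129.5, 134.4, 147.8 and 137.9 CPM under BSA (control), 112.9, 116.2, 116.6 and 131.4 CPM under IL-1β, 88.8, 79.8, 73.7 and 78 CPM under palmitate, and 70.8, 73.9, 72.7 and 65.3 CPM under palmitate + IL-1β. Palmitate libraries were all below those without palmitate, and only IL-1β replicate 8 reached into the range of BSA (control). Adamts5 fell by 0.78 ± 0.06 on the log2 scale with palmitate (adjusted p = 1.2e-12), by 0.20 ± 0.05 with IL-1β (adjusted p = 0.0101) and by 0.96 ± 0.06 with both (adjusted p = 7.7e-15). Per kb of exon, Adamts5 was 12.6 and Adamts4 2.59 in BSA (control), and with both agents they were 6.47 and 6.63.

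Adamts1, a versican- and aggrecan-cleaving enzyme whose gene lies 53.1 kb from Adamts5 on chromosome 16, fell as well. Its values were 97.7, 90.9, 99.6 and 99.2 CPM under BSA (control), 96.3, 97.0, 95 and 92.4 CPM under IL-1β, 58.1, 59.2, 54.0 and 52.7 CPM under palmitate, and 56.5, 58.1, 57.0 and 58.5 CPM under palmitate + IL-1β. Libraries with and without palmitate did not overlap, and those with and without IL-1β did. The fall was 0.79 ± 0.04 on the log2 scale with palmitate (adjusted p = 1.2e-15) and 0.75 ± 0.04 with both (adjusted p = 2.6e-15), and the difference with IL-1β was -0.03 ± 0.04 (95% interval -0.11 to 0.06).

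The remaining proteoglycan-cleaving members were low. Adamts9 was at 3.79, 3.75, 4.01 and 3.36 CPM under BSA (control), 3.31, 3.59, 3.23 and 3.02 CPM under IL-1β, 1.65, 1.40, 1.62 and 1.36 CPM under palmitate, and 1.36, 1.36, 1.93 and 1.40 CPM under palmitate + IL-1β. It fell to 0.399 times BSA (control) with palmitate (log2 -1.33 ± 0.15, adjusted p = 6.3e-09), the largest fall of any member in this comparison, and libraries with and without palmitate did not overlap. Adamts15 was at 0.533, 0.646, 0.458 and 0.384 CPM under BSA (control), 0.327, 0.39, 0.760 and 0.539 CPM under IL-1β, 0.291, 0.121, 0.184 and 0.575 CPM under palmitate, and 0.255, 0.397, 0.225 and 0.368 CPM under palmitate + IL-1β. Palmitate replicate 12 lay among the BSA (control) libraries, and the fall of 1.04 ± 0.41 with palmitate (adjusted p = 0.0455) was lost with DESeq2, without the expression filter and without BSA replicate 1, 2 or 3 or palmitate replicate 9, 10 or 11 (log2 -1.09 to -0.54, adjusted p = 0.0567 to 0.367). Leaving out IL-1β replicate 6 or any library of palmitate + IL-1β also ended the Adamts15 call (adjusted p = 0.0502 to 0.0533).

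Adamts8, next to Adamts15 on chromosome 9, had 3, 1, 8 and 0 counts under BSA (control), 1, 1, 2 and 0 counts under IL-1β, 4, 22, 6 and 9 counts under palmitate, and 17, 17, 4 and 18 counts under palmitate + IL-1β. At most 0.305 CPM was reached without palmitate and at most 0.663 CPM with it, and palmitate replicates 9, 10 and 11 and palmitate + IL-1β replicate 15 lay within the range of BSA (control). The rise of 2.13 ± 0.57 on the log2 scale with both agents passed (adjusted p = 0.00263), and that of 1.30 ± 0.62 with palmitate did not (adjusted p = 0.101), except without BSA replicate 3 (log2 2.47, adjusted p = 0.00814). Adamts8 entered the test only through libraries with palmitate, where it is high, so its rise is given as a description. For palmitate + IL-1β against BSA (control), only 6 of the 8 fits that left out a compared library still held Adamts8.

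The procollagen N-proteinases remove the amino-terminal part of fibrillar procollagens. Adamts14 stood at 18.6, 16.8, 20.1 and 18.9 CPM under BSA (control), 25.8, 25.5, 27.6 and 25.1 CPM under IL-1β, 63.1, 61.1, 59.5 and 61.4 CPM under palmitate, and 57.8, 64.6, 54.2 and 63.7 CPM under palmitate + IL-1β. A total of 3 levels was seen without overlap, BSA (control) below IL-1β and IL-1β below all libraries with palmitate. Palmitate raised Adamts14 3.30-fold (log2 1.72 ± 0.06, adjusted p = 3.2e-21), IL-1β 1.40-fold (log2 0.49 ± 0.06, adjusted p = 6.1e-07) and both 3.23-fold (log2 1.69 ± 0.06, adjusted p = 3.8e-21). Adamts2, the more abundant enzyme of this activity, was between 172.6 and 193.4 CPM in all 16 libraries, and its palmitate difference was -0.02 ± 0.04 (95% interval -0.11 to 0.06). Adamts3 went from 1.65 ± 0.278 to 2.08 ± 0.0729 CPM with palmitate (adjusted p = 0.154) and passed with both agents (log2 0.55 ± 0.18, adjusted p = 0.0119).

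Adamts7 and Adamts12 can cleave cartilage oligomeric matrix protein. Adamts7 was at 19.6, 18.8, 20.9 and 20.3 CPM under BSA (control), 23.4, 24.1, 24.9 and 24.6 CPM under IL-1β, 44.1, 42.1, 41.6 and 40.3 CPM under palmitate, and 40.7, 41.2, 39.3 and 37.7 CPM under palmitate + IL-1β. The same 3 steps without overlap were seen as for Adamts14. Adamts7 rose by 1.08 ± 0.05 with palmitate (adjusted p = 1.6e-17), 0.29 ± 0.05 with IL-1β (adjusted p = 2.3e-04) and 1.00 ± 0.05 with both (adjusted p = 9.2e-17). Adamts12, the most abundant Adamts gene, ranged from 288.4 to 394.1 CPM and passed in none of the 6 comparisons between conditions.

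Of the other Adamts genes, Adamts17 was at 0.947, 1.45, 0.992 and 1.36 CPM under BSA (control), 0.982, 1.37, 1.42 and 0.83 CPM under IL-1β, 0.680, 0.496, 0.551 and 0.411 CPM under palmitate, and 0.878, 0.596, 0.611 and 0.626 CPM under palmitate + IL-1β. Its palmitate libraries were below all libraries without palmitate, and palmitate + IL-1β replicate 13 reached into the IL-1β range. The fall was 1.18 ± 0.25 on the log2 scale with palmitate (adjusted p = 3.4e-04) and 0.80 ± 0.25 with both (adjusted p = 0.00819). Adamts6 fell with palmitate from 95.2 ± 4.54 to 57.1 ± 2.62 CPM (log2 -0.74 ± 0.06, adjusted p = 9.7e-12) and Adamts10 from 23.3 ± 1.58 to 17.3 ± 0.802 CPM (log2 -0.43 ± 0.06). Adamts16 did not pass (log2 -0.43 ± 0.35, adjusted p = 0.363).

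**Figure D3:**
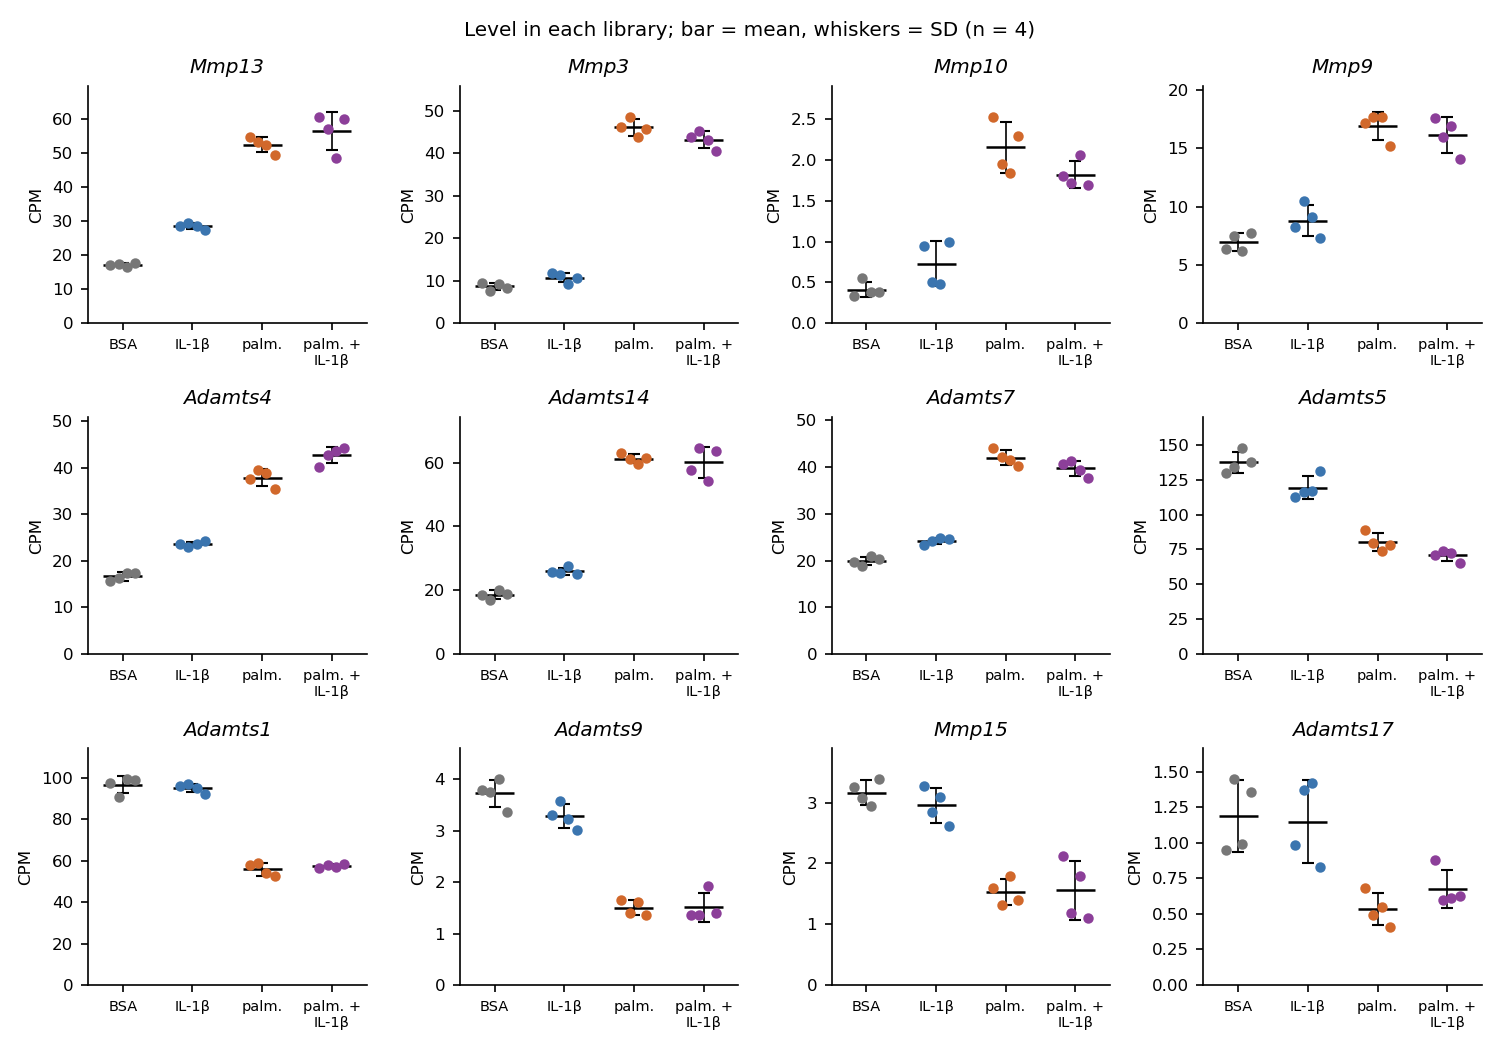
CPM of 12 members in each of the 16 libraries (points), with the mean (bar) and SD (whiskers, n = 4) of each condition and axes from 0. In Mmp13, Mmp3, Mmp10, Mmp9, Adamts4, Adamts14 and Adamts7 all libraries with palmitate lie above those without it, and in Adamts5, Adamts1, Adamts9 and Mmp15 they lie below, while Adamts17 overlaps through a single library of palmitate + IL-1β.

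With palmitate, none of the 3 tested inhibitors changed by 2-fold or more. Some abundant proteases changed as little, with log2 differences of 0.05 for Mmp2, 0.17 for Mmp14, 0.04 for Adamts12 and -0.02 for Adamts2. Timp2, a broad inhibitor that also takes part in the activation of Mmp2 by Mmp14, stood at 1523, 1507.5, 1614 and 1529 CPM under BSA (control), 1422, 1431, 1476 and 1445 CPM under IL-1β, 1429, 1361, 1379 and 1413 CPM under palmitate, and 1351, 1311, 1280.0 and 1294 CPM under palmitate + IL-1β. The BSA (control) libraries were the highest and those of palmitate + IL-1β the lowest, without overlap with any other condition. Timp2 fell by 0.15 ± 0.04 on the log2 scale with palmitate (adjusted p = 0.00264) and by 0.24 ± 0.04 with both (adjusted p = 4.2e-06). With IL-1β the difference was -0.10 ± 0.04 (adjusted p = 0.0856), which passed with DESeq2 (adjusted p = 0.022) and with upper-quartile scaling (log2 -0.14, adjusted p = 0.00543). Of the exon bases of Timp2, 7.44% overlap Cep295nl on the same strand.

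Timp1, the inducible inhibitor of many MMPs, was at 93.1, 115.6, 97.8 and 104.2 CPM under BSA (control), 118.2, 109.7, 107.5 and 99.4 CPM under IL-1β, 127.4, 138.6, 131.4 and 124.9 CPM under palmitate, and 106.7, 113.1, 134.9 and 98.9 CPM under palmitate + IL-1β. The palmitate libraries were above all libraries of BSA (control) and IL-1β, and those of palmitate + IL-1β reached from the range of BSA (control) to that of palmitate. Timp1 rose 1.27-fold with palmitate (log2 0.35 ± 0.09, adjusted p = 0.00463), against a 5.34-fold rise of Mmp3. With both agents the difference from BSA (control) was 0.14 ± 0.09 (adjusted p = 0.196), and that from palmitate was -0.21 ± 0.09 (adjusted p = 0.17), which passed without palmitate + IL-1β replicate 15 (log2 -0.30, adjusted p = 0.00405). Without that library the Timp1 interaction passed as well (-0.38, adjusted p = 0.0193). Both also passed without the expression filter (log2 -0.22, adjusted p = 0.00468, and interaction -0.29, adjusted p = 0.0344).

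Timp3, which binds to matrix and inhibits ADAMTS as well as MMP enzymes, was at 859.1, 934.8, 1028 and 958.1 CPM under BSA (control), 807.6, 793.7, 840.7 and 916.3 CPM under IL-1β, 1035, 958.6, 922.8 and 947.6 CPM under palmitate, and 872.0, 852.1, 858.2 and 869.6 CPM under palmitate + IL-1β. Each condition with IL-1β was lower on average than its counterpart without it, though BSA (control) overlapped both. Timp3 fell by 0.17 ± 0.05 with IL-1β (adjusted p = 0.0176) and by 0.13 ± 0.05 with both agents (adjusted p = 0.0307), while palmitate alone gave 0.03 ± 0.05 (adjusted p = 0.669). The IL-1β call was lost without BSA replicate 3 or IL-1β replicate 5 or 6 (log2 -0.15 to -0.13), and that with both agents without BSA replicate 3 or 4 or palmitate + IL-1β replicate 15 (log2 -0.13 to -0.09). Timp4 had at most 11 counts and was not tested.

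IL-1β against BSA (control) asked what the cytokine did on its own. It moved fewer of these genes, with 6 of the 33 tested members higher and 5 lower, at shares of 18.2% and 15.2%, where 10.1% of all genes tested were higher and 4.97% lower. The 6 that rose were Mmp13 (1.67-fold), Adamts4 (1.42-fold), Adamts14 (1.40-fold), Mmp9 (1.27-fold), Mmp3 (1.23-fold) and Adamts7 (1.22-fold), and those that fell were Adamts6, Mmp11, Adamts5, Adamts10 and Timp3. None reached a 2-fold change, and the median over the members was -0.02. The fall of Adamts10 (log2 -0.19 ± 0.06, adjusted p = 0.0418) was lost without BSA replicate 1, 2 or 4 or IL-1β replicate 5 or 7 (log2 -0.19 to -0.14, adjusted p = 0.0663 to 0.165) in a fit of only the 8 libraries (adjusted p = 0.0744) and, more narrowly, without palmitate replicate 10 or 12 (adjusted p = 0.0514 and 0.0507). With upper-quartile scaling 6 were higher and 8 lower, the added falls being Timp2, Mmp17 and Mmp23, and over all genes the share of calls that were higher was 43.5% in place of 67.1%.

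Palmitate + IL-1β against BSA (control) gave 11 higher and 14 lower members (33.3% and 42.4%), where 24.8% of all genes tested were higher and 22.5% lower. A change of at least 2-fold was called in 11 members. The higher members include Mmp25 and Adamts8, which entered the test only through libraries with palmitate. Shares of all genes tested were not computed for 2-fold changes or for calls shared between comparisons, so those counts are descriptions only. The median over the members was -0.12. This comparison shares its BSA (control) libraries with the other comparisons against BSA (control), and 6 members (Mmp3, Mmp9, Mmp13, Adamts4, Adamts7 and Adamts14) were called higher and 4 (Mmp11, Adamts5, Adamts6 and Adamts10) lower in all 3. Mmp10, Mmp25 and Mmp28 were higher with palmitate and with both agents only, and 8 members were lower in these comparisons only, namely Mmp15, Mmp16, Mmp17, Mmp23, Adamts1, Adamts9, Adamts17 and Timp2. Timp1 and Mmp14 passed as higher with palmitate alone and Adamts15 as lower. Adamts3 and Adamts8 passed as higher and Mmp19 as lower (log2 -0.12 ± 0.05, adjusted p = 0.0399) with both agents alone, the last of these not without BSA replicate 2 or 4 or palmitate + IL-1β replicate 14 or 15 (log2 -0.13 to -0.10) or palmitate replicate 10 (adjusted p = 0.0504). Not passing in one comparison does not show that comparisons differ. With upper-quartile scaling 11 members were higher and 16 lower, and over all genes the share of calls that were higher was 38.7% in place of 52.4%.

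Palmitate + IL-1β against palmitate asked what IL-1β added. Only 1 member was higher and 4 were lower (3.03% and 12.1%), where 5.71% of all genes tested were higher and 4.1% lower. Adamts4 rose by 0.17 ± 0.05 on the log2 scale (adjusted p = 0.0277), and Adamts6 (-0.25 ± 0.06, adjusted p = 0.0049), Adamts5 (-0.18 ± 0.06, adjusted p = 0.0402), Mmp11 (-0.17 ± 0.06, adjusted p = 0.0492) and Timp3 (-0.16 ± 0.05, adjusted p = 0.0335) fell. With any 1 of the 16 libraries left out, between 1 and 5 members passed, and only 1 passed without palmitate replicate 9, palmitate replicate 12 or palmitate + IL-1β replicate 16. Adamts6 was called whichever of the 8 libraries compared was left out. The call of Adamts5 was lost in 6 of these 8 fits (log2 -0.21 to -0.13 over all 8), that of Mmp11 in 6 (-0.21 to -0.14), that of Timp3 in 7 (-0.18 to -0.13) and that of Adamts4 in 5 (0.14 to 0.19). Adamts5 also lost its call without BSA replicate 4 or IL-1β replicate 6 (adjusted p = 0.0518 and 0.0507), and Mmp11 without IL-1β replicate 5 or 6 (adjusted p = 0.0526 and 0.057).

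Palmitate + IL-1β against IL-1β asked what palmitate did in the presence of the cytokine, and gave 10 higher and 13 lower members (30.3% and 39.4%), where 18.9% of all genes tested were higher and 16.1% lower. The higher members include Mmp25 and Adamts8, which entered the test only through libraries with palmitate, so their rises are descriptions. Leaving aside Adamts8, whose IL-1β libraries had at most 2 counts, the largest rise was that of Mmp3 (log2 2.02 ± 0.07, adjusted p = 8.9e-21), followed by Mmp25 (1.68 ± 0.48), Mmp10 (1.35 ± 0.23), Adamts14 (1.2 ± 0.06) and Mmp13 (0.98 ± 0.06). The largest falls were those of Adamts9 (-1.12 ± 0.15), Mmp15 (-0.91 ± 0.18), Adamts17 (-0.76 ± 0.25) and Adamts5 (-0.75 ± 0.06), and that of Adamts17 was lost without IL-1β replicate 6 or 7 (log2 -0.68 and -0.64, adjusted p = 0.0597 and 0.0772). Palmitate against IL-1β gave 13 higher and 10 lower members (39.4% and 30.3%), where 16.5% of all genes tested were higher and 15.2% lower. Mmp25 and Adamts8 are among the higher members here too, with the same limit. With upper-quartile scaling the split was 11 higher and 12 lower, and over all genes 45.5% of calls were higher in place of 52.1%. Here 2 of the 3 tested inhibitors were higher with palmitate, Timp3 by 0.20 ± 0.05 (adjusted p = 0.00208) and Timp1 by 0.27 ± 0.09 (adjusted p = 0.0285). The Timp1 call was lost with upper-quartile scaling (log2 0.24, adjusted p = 0.0507) and without IL-1β replicate 6, 7 or 8 or palmitate replicate 10 or 11 (log2 0.23 to 0.27, adjusted p = 0.0539 to 0.0932).

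The interaction, which is the palmitate effect with IL-1β minus that without it, was called in 5 of the 33 tested members, all of them negative (15.2%), and in none positive, where 1.83% of all genes tested were negative and 0.159% positive. The difference was -0.63 ± 0.08 on the log2 scale for Mmp13 (adjusted p = 4.9e-06), -0.52 ± 0.08 for Adamts14 (adjusted p = 1.0e-04), -0.37 ± 0.07 for Adamts7 (adjusted p = 0.00204), -0.40 ± 0.10 for Mmp3 (adjusted p = 0.0238) and -0.34 ± 0.08 for Adamts4 (adjusted p = 0.00905). In each of these genes palmitate gave a rise in both settings, and the rise was smaller from the level already set by IL-1β. Palmitate raised Mmp13 by 1.61 without and by 0.98 with IL-1β, and Adamts14 by 1.72 and 1.2. For Mmp3 the call was lost with upper-quartile scaling (-0.36, adjusted p = 0.0576) and without BSA replicate 2 or 4, IL-1β replicate 5 or 6 or palmitate replicate 10 (-0.38 to -0.34, adjusted p = 0.0613 to 0.0956). Mmp9 gave -0.42 ± 0.13 (adjusted p = 0.133), which passed without IL-1β replicate 8 (-0.50, adjusted p = 0.0348) and without the expression filter (-0.43, adjusted p = 0.0297), and Mmp10 -1.01 ± 0.35 (adjusted p = 0.185). Among the fallers the interaction did not pass, with 0.06 ± 0.06 for Adamts1, 0.03 ± 0.08 for Adamts5 and 0.21 ± 0.21 for Adamts9.

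**Figure D4:**
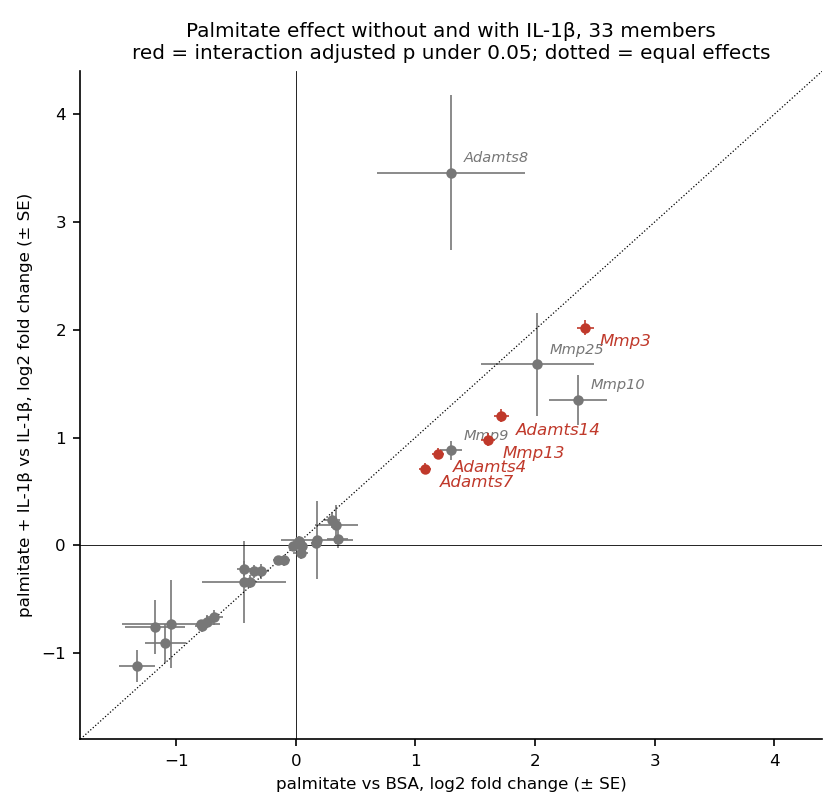
Log2 fold change (± SE) of palmitate against BSA (control) on the horizontal axis and of palmitate + IL-1β against IL-1β on the vertical axis for the 33 tested members, with the line of equal effects dotted and interactions with an adjusted p under 0.05 in red. The effects, from separate libraries, had the same sign in 31 members and were smaller with IL-1β in 29, counts not computed over all genes. The red points Mmp3, Mmp13, Adamts4, Adamts7 and Adamts14 lie below the line. Adamts8 stands above it, with at most 2 counts in any IL-1β library.

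Over the 33 tested members, the palmitate effects without and with IL-1β, taken from separate libraries, were correlated at 0.884 (Pearson's r) and 0.983 (Spearman's rho), as a description across genes, which are not independent replicates. The same sign was found in 31 members, and the effect was smaller in size with IL-1β in 29. Matching counts and correlations over all genes tested were not computed, so these values are not shown to be particular to the family. Over all genes tested, called interactions were also mostly negative (1.83% against 0.159% positive).

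Summed over all members of a family, levels moved far less than those of single genes. The Mmp sum per library was 423.7 to 438.8 CPM per kb under BSA (control), 417.1 to 443.9 under IL-1β, 476.0 to 496.2 under palmitate and 444.2 to 479.2 under palmitate + IL-1β. The Adamts sum was 98.3 to 107.4, 99.2 to 110.3, 94.4 to 102.1 and 95.4 to 99.8 CPM per kb in the same order, with overlapping ranges. The Timp sum was 494.3 to 537.8, 474.1 to 488.8, 489.5 to 512.2 and 447.3 to 464.2 CPM per kb. The Mmp sum was thus above BSA (control) in every palmitate library, and the Timp sum was lowest in palmitate + IL-1β, below every library of the other conditions.

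The log2 ratio of the Mmp to the Timp sum was -0.19, -0.22, -0.32 and -0.28 under BSA (control), -0.11, -0.10, -0.17 and -0.22 under IL-1β, -0.05, -0.00, -0.03 and -0.06 under palmitate, and 0.05, 0.02, -0.05 and -0.01 under palmitate + IL-1β. All libraries with palmitate were above all libraries without it, and the ratio stayed near equal amounts. Without division by exon length the mean ratio was -0.49 under BSA (control), -0.37 under IL-1β, -0.31 under palmitate and -0.27 under palmitate + IL-1β, and the separation was lost, since palmitate replicates 9 and 12 (-0.34 and -0.33) lay below IL-1β replicates 5 and 6 (-0.31 and -0.30). These sums are descriptions and were not tested.

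What changed more was the make-up of the Mmp sum. Mmp2 and Mmp14 together made 86.9% ± 0.197 (SD, n = 4) of it under BSA (control), 86.3% ± 0.312 under IL-1β, 82.1% ± 0.0706 under palmitate and 81.6% ± 0.28 under palmitate + IL-1β. Mmp3, Mmp9, Mmp10 and Mmp13, the secreted Mmp members that rose at least 2-fold with palmitate and were grouped for that rise, so that their share is a description only, made 3.09% ± 0.0922, 4.47% ± 0.142, 10.5% ± 0.147 and 11.0% ± 0.228. Among single protease and inhibitor pairs, the log2 ratio of Mmp3 to Timp1 per kb went from -3.45 ± 0.27 in BSA (control) to -1.38 ± 0.06 in palmitate and that of Mmp13 to Timp1 went from -3.03 ± 0.12 to -1.76 ± 0.07. Against Timp3, Adamts4 went from -5.48 ± 0.05 to -4.33 ± 0.10 and Adamts5 from -3.20 ± 0.03 to -4.02 ± 0.04.

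**Figure D5:**
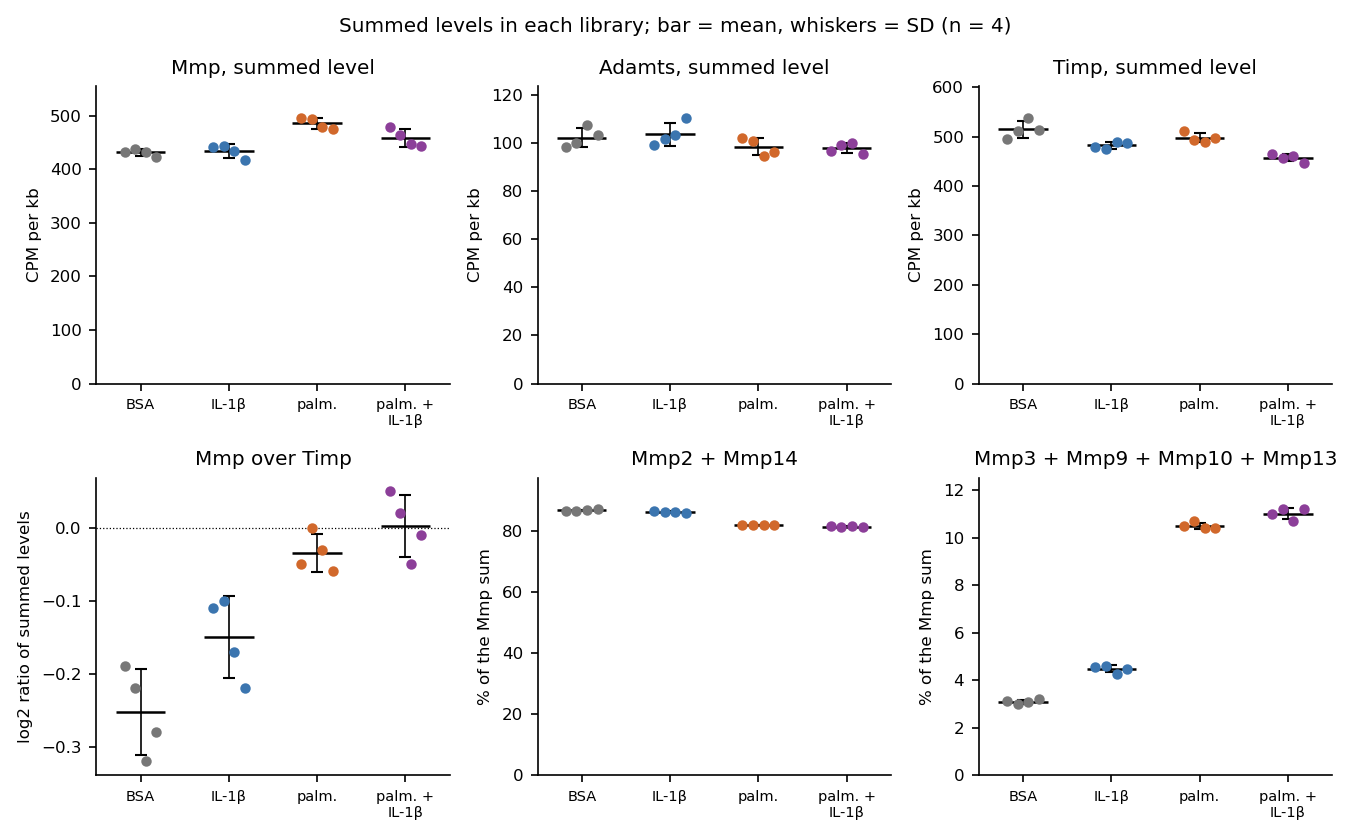
Summed level of the Mmp, Adamts and Timp genes in each library (CPM per kb), the log2 ratio of the Mmp to the Timp sum, and the share of the Mmp sum held by Mmp2 with Mmp14 and by Mmp3, Mmp9, Mmp10 and Mmp13, with the mean (bar) and SD (whiskers, n = 4). The last panel shows the share rise from 3.09% in BSA (control) to 10.5% in palmitate and 11.0% in palmitate + IL-1β while the sums in the top row stay within 417.1 to 496.2 (Mmp), 94.4 to 110.3 (Adamts) and 447.3 to 537.8 CPM per kb (Timp).

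Genes that act on the same proteolysis were read from lists chosen with earlier results of these data known. Against BSA (control), 19.8% of all genes tested were higher and 17.5% lower with palmitate. These shares were 10.1% and 4.97% with IL-1β, and 24.8% and 22.5% with both agents. The lists are short and were not tested as sets, so their counts are descriptions only. Of 5 tested genes of plasminogen activation, a system that turns on MMP precursors, palmitate raised 3 and lowered 0. These were Plau (urokinase, from 14.2 to 24.3 CPM, log2 0.77 ± 0.06), the urokinase inhibitor gene Serpinb2 (0.73 ± 0.12) and the urokinase receptor Plaur (0.54 ± 0.07). IL-1β raised Plaur (0.48 ± 0.07) and lowered Plat (-0.20 ± 0.04), the tissue-type activator. With both agents 3 were higher, led by Plaur (0.96 ± 0.07), and 2 were lower, with Plat at -0.24 ± 0.04.

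Of 7 tested genes for activation and clearance of the proteases, palmitate raised 0 and lowered 4. The proprotein convertases Pcsk6 (-0.55 ± 0.06) and Pcsk5 (-0.53 ± 0.07), the membrane-anchored MMP inhibitor Reck (-0.46 ± 0.05) and the collagen uptake receptor Mrc2 (-0.19 ± 0.04) fell, while Furin gave 0.09 ± 0.04 and did not pass. IL-1β raised Lrp1, an endocytic receptor that clears several of these proteases (0.60 ± 0.18), and lowered Reck (-0.21 ± 0.05). With both agents 2 were higher, led by Lrp1 (0.74 ± 0.18), and 4 were lower, led by Pcsk6 (-0.61 ± 0.06). Reck fell in all 3 comparisons with BSA (control).

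Among 8 tested ADAM sheddases, membrane proteases that release surface proteins, palmitate raised Adam8 (1.76 ± 0.20), Adam17 (0.83 ± 0.04) and Adam9 (0.11 ± 0.04) and lowered Adam33 (-0.63 ± 0.21). Adam17, the main sheddase of TNF and a known target of Timp3, went from 54.1 to 96.0 CPM. IL-1β raised 2, led by Adam8 (0.66 ± 0.23), and lowered 0, and with both agents 2 were higher, led by Adam8 (1.47 ± 0.20), and 2 were lower, led by Adam19 (-0.27 ± 0.04). The ADAMTS-like genes, which have no protease domain, had 3 of 4 tested lower with palmitate and 0 higher, led by Adamtsl1 (-1.14 ± 0.07), 0 changed with IL-1β, and 2 lower with both, again led by Adamtsl1 (-1.12 ± 0.07). Among 5 tested matrix-degrading cathepsins and Fap, palmitate lowered Fap (-0.36 ± 0.08) and Ctsb (-0.21 ± 0.05) and raised 0, IL-1β changed 0, and both agents together lowered 2, led by Fap (-0.39 ± 0.08).

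The AP-1 and Ets factors, whose letters were searched in the promoters above, were all expressed, and palmitate raised 7 of 9 and lowered 2. Fosl1 went from 1.64 to 6.11 CPM (log2 1.88 ± 0.14) and Ets2 from 77.2 to 220.2 CPM (1.51 ± 0.04), Junb and Jun rose by 0.78 ± 0.06 and 0.76 ± 0.04, and Fosb (-1.2 ± 0.25) and Fos (-0.77 ± 0.20) fell. IL-1β raised 6, led by Fosl1 (1.29 ± 0.15), and lowered 0. With both agents 6 were higher, led by Fosl1 (2.38 ± 0.14), and 2 were lower, led by Fosb (-1.11 ± 0.26). Of the 9, 4 had a negative interaction, Ets2 (-0.84 ± 0.06), Fosl1 (-0.79 ± 0.19), Junb (-0.55 ± 0.09) and Jun (-0.23 ± 0.06), where 1.83% of all genes tested had one. Whether these factors acted on the proteases was not tested.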

How the data were processed

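Bulk RNA sequencing of 16 mGF libraries, 4 in each of 4 conditions, was analysed from a table of raw counts per gene deposited by the authors. According to the methods and the submitters' processing notes, the authors used Trimmomatic 0.39 for trimming, STAR 2.7.10a for alignment to GRCm39 and HTSeq 2.0.9 for strand-aware counting. A stranded total RNA kit is named in the labels and an oligo(dT) kit in the methods, so which RNA classes were captured is not settled here.

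The 5 summary lines that name no gene (18.3% to 21.4% of the counts) were left out. Genes were kept by filterByExpr (minimum count 10, minimum total 15), which left 16306 of 56941, scaled by TMM, and tested with edgeR 4.0.16 (quasi-likelihood, two-sided, R 4.3.3) in 1 model holding the 16 libraries, with Benjamini-Hochberg adjustment over all tested genes and a threshold of 0.05. Adjusted p-values in the text are from this test unless DESeq2 1.42.0 is named. Intervals are at 95%, and levels are CPM on TMM-scaled totals. The scripts were tested on simulated data. Each interval and the floor of 3 counts cover counting error or the spread between libraries only.

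The members and gene lists were chosen with earlier results of these data known. Values per library are given for the Timp genes, for members called with at least a 2-fold change against BSA (control), and for Mmp2, Mmp3, Mmp9, Mmp13, Mmp14, Adamts1, Adamts4 and Adamts5. Alternatives were upper-quartile and RLE scaling, DESeq2, other expression filters, library sizes without mitochondrial and rRNA genes, fits of only the libraries compared, leaving out each library, and sums without exon length. Shared sequence was searched with BLAST 2.17.0 (at least 95% identity over 100 bases). The replicate libraries of every condition differed by more than sampling noise (chi-square per degree of freedom 2.66 to 19.8), so each was counted once. A gene of the plasminogen list is not reported here.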

Additional observations from a re-analysis of the deposited data

Results flagged for a closer look

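In 5 members the palmitate effect with IL-1β differed from that without it by the interaction test in edgeR (4 libraries per condition). The differences on the log2 scale were -0.63 for Mmp13, -0.52 for Adamts14, -0.40 for Mmp3, -0.37 for Adamts7 and -0.34 for Adamts4, out of 33 members tested.

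A single library stood apart from the other 3 of its condition by Dixon's criterion in 2 of 80 groups of 4 libraries, where chance flags about 1 in 20 groups. Adamts9 was at 1.93 CPM in palmitate + IL-1β replicate 15, against 1.36 to 1.40 CPM in the other libraries of that condition. Adamts17 was at 0.878 CPM in palmitate + IL-1β replicate 13, against 0.596 to 0.626 CPM.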

How the results depend on the processing

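No called result of the members changed direction under any alternative that was run. Some results that had not passed changed sign with a library left out, such as Adamts12 for palmitate against BSA (control) (0.04, range -0.01 to 0.07) and Mmp25 for IL-1β (0.27, range -0.08 to 0.52). For palmitate + IL-1β against palmitate, between 1 and 5 members passed when each library was left out in turn, against 5 with all libraries. Left out 1 at a time, the libraries gave 23 to 24 called members for palmitate against BSA (control), 9 to 12 for IL-1β and 23 to 25 for both agents, and 4 to 6 for the interaction. Over all 7 contrasts, 1758 of the called results stayed called in these fits and 92 did not, while 17 results that had not passed did so. Adamts8 fell out of the test in some fits without a palmitate + IL-1β library, and its called results in those fits are in neither count. With upper-quartile scaling 14 members passed for IL-1β against BSA (control) in place of 11, and 113 called results stayed called while 3 did not. The cause of these changes was not tested. No paired analysis was possible because the replicate numbers in the labels run from 1 to 16 and no number is shared between conditions. Mmp25 and Adamts8 rest on few counts, and 13 members were not tested, 3 of them with 0 counts in every library.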
